A study of Mus musculus with 2 samples.

Results

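The loci of the 4 class IIa histone deacetylases of the mouse, Hdac4, Hdac5, Hdac7 and Hdac9, were examined for regions where histone H4 chromatin carried more sequencing tags after treatment with a deacetylase inhibitor. Members were all deposited regions that overlapped 1 fixed window of build mm9 at each gene. The windows were chr1:93790000-94130000 for Hdac4, chr11:102030000-102130000 for Hdac5, chr15:97580000-97720000 for Hdac7 and chr12:34700000-35250000 for Hdac9. This gave 69 of the 61400 listed regions, with 42 at Hdac4, 6 at Hdac5, 10 at Hdac7 and 11 at Hdac9. A listed region, called SAHA-high here, is a stretch where the authors' caller counted more mapped reads (tags) in the SAHA library than the DMSO library would give. The data came from chromatin immunoprecipitation and sequencing (ChIP-seq) of MC3T3 sc4 cells, a mouse osteoblast line from calvaria grown for 4 days towards bone-forming cells. The SAHA group was 1 library made after 2 hours in 20 µM SAHA (suberoylanilide hydroxamic acid), and the DMSO group was 1 library made after the same time in solvent alone. The agents stayed on the cells during a collagenase digest of 40 min, and both groups were in osteogenic medium. The labels name the antibody as Histone H4, and the design text speaks of acetylated histone H4. With 1 library per condition no difference could be tested, and the spread between cultures is unknown.

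Class IIa enzymes are transcriptional repressors that have little deacetylase activity of their own and act largely through the Hdac3 corepressor complex. They bind Mef2 transcription factors and move between nucleus and cytoplasm when kinases phosphorylate them and 14-3-3 proteins hold them. In the skeleton, Hdac4 is known for restraining chondrocyte hypertrophy, Hdac5 for repressing the sclerostin gene in osteocytes, Hdac7 for repressing Runx2 in osteoblasts, and Hdac9 for roles in muscle and in bone-cell differentiation. SAHA inhibits mainly class I and class IIb enzymes. Acetylation of histone H4 is a mark of accessible chromatin at promoters, enhancers and some transcribed stretches.

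The 4 genes differ in their annotated promoters, shown here to let the regulatory sequence at their starts be compared. The 250 bases before the first listed start of each gene are from RefSeq (GRCm38.p6, minus strand, printed 5′ to 3′ along the gene). Capitals mark CpG dinucleotides. All 4 genes had an entry. Since the list is in mm9, these sequences could not be placed relative to the listed regions.
Hdac4: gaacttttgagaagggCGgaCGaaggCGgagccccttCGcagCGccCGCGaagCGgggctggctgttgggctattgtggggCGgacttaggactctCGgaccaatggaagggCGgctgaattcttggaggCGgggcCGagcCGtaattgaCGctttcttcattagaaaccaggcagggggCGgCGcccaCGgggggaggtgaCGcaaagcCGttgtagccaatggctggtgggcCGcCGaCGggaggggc
Hdac5: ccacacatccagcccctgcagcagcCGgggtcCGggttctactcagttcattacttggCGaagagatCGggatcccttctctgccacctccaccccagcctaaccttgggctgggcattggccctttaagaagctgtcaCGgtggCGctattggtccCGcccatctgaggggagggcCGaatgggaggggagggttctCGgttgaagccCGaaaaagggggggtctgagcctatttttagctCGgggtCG
Hdac7: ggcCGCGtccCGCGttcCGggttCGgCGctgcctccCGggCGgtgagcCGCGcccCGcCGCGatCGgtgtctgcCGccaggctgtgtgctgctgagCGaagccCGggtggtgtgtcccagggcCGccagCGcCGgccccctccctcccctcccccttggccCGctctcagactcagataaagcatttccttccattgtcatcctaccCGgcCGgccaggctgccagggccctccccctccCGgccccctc
Hdac9: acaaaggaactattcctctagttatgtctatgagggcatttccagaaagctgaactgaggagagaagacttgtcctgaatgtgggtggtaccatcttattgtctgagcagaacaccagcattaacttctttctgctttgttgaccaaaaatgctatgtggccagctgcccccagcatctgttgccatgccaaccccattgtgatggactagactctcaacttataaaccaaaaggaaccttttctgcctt
The Hdac7 stretch held 25 CpG, the Hdac4 stretch 23 and the Hdac5 stretch 12, whereas the first Hdac9 stretch held 0. Over all 32851 promoter entries of the table the median was 6 CpG (quartiles 2 and 16). A second Hdac9 entry held 2 CpG, and the 3 further Hdac7 entries held 6, 21 and 5.

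Hdac4 was the most densely covered of the 4 windows and Hdac9 the least. The Hdac9 window is shorter than the gene's model in RefSeq's GRCm38 annotation, so its values describe a part of that locus. SAHA-high regions covered 39.2% of the Hdac4 window, 18.6% of the Hdac7 window, 12.3% of the Hdac5 window and 3.52% of the Hdac9 window. Because the windows differ in size (340 kb, 140 kb, 100 kb and 550 kb), the number of regions was also set per 100 kb. It was 12.4 at Hdac4, 7.14 at Hdac7, 6.0 at Hdac5 and 2.0 at Hdac9, the same order. The covered length was 133.4 kb at Hdac4 and 26.1 kb at Hdac7, against 12.3 kb at Hdac5 and 19.3 kb at Hdac9. In 10 kb steps along the windows, 23 of 34 steps at Hdac4 touched a region and 12 were more than 50% covered. At Hdac9, 10 of 55 steps touched a region and 0 were more than 50% covered.

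**Figure D1:**
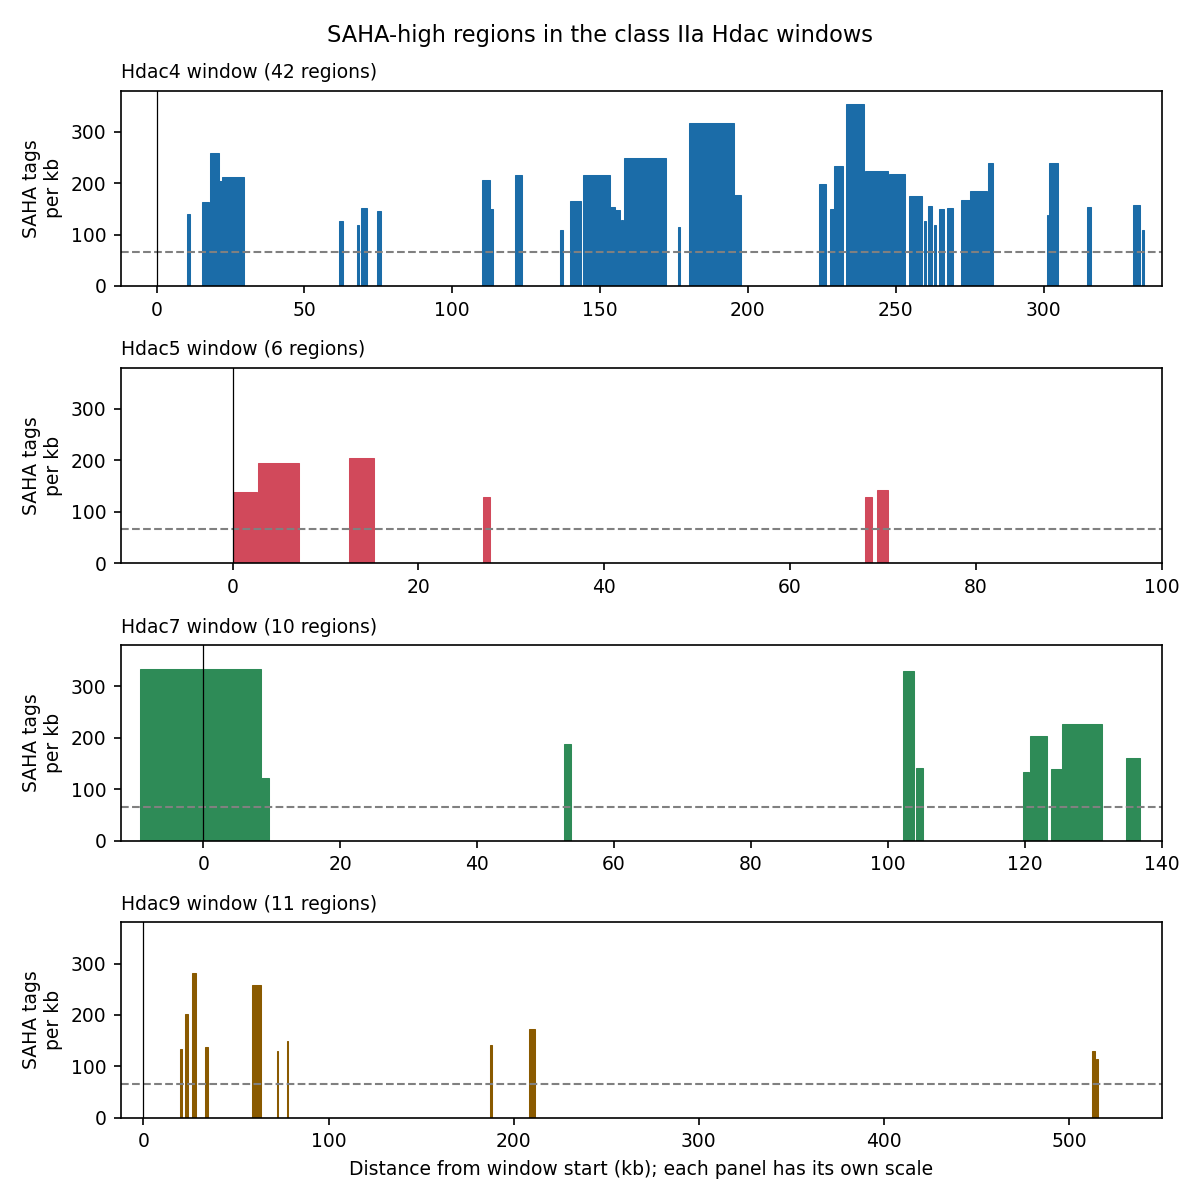
Position of the 69 regions in the 4 windows. The x axis is the distance from the window start in kb, with its own scale in each panel; bar width is region length and bar height is SAHA tags per kb. The dashed line is the genome average of 66.1 tags per kb at SAHA depth, and the vertical line is the window start. Hdac4 carries long runs of adjacent regions, while Hdac9 has a gap of 301.2 kb without any.

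Each window was then set beside windows of the same size laid end to end over its own chromosome. Windows holding at least 1 SAHA-high region made up 56.5% of those of Hdac4 size on chromosome 1, 58.6% of those of Hdac5 size on chromosome 11, 49.3% of those of Hdac7 size on chromosome 15 and 54.0% of those of Hdac9 size on chromosome 12. Holding a region is therefore not particular to these loci. Coverage separated them more. The Hdac4 window had more coverage than 558 of 563 windows (99.1%), whose median was 0.612% and highest value 56.3%. The Hdac7 window had more coverage than 634 of 712 (89.0%), with a median of 0% among them. The Hdac5 window had more coverage than 932 of 1184 (78.7%), with a median of 2.11%. The Hdac9 window had more coverage than 146 of 211 (69.2%), with a median of 0.378%. Among windows with at least 1 region, Hdac9 exceeded 43.0%, below the middle, and Hdac4 still exceeded 98.4%. Neighbouring windows are not independent and stretches where few tags can map are included, so these ranks are a description.

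**Figure D2:**
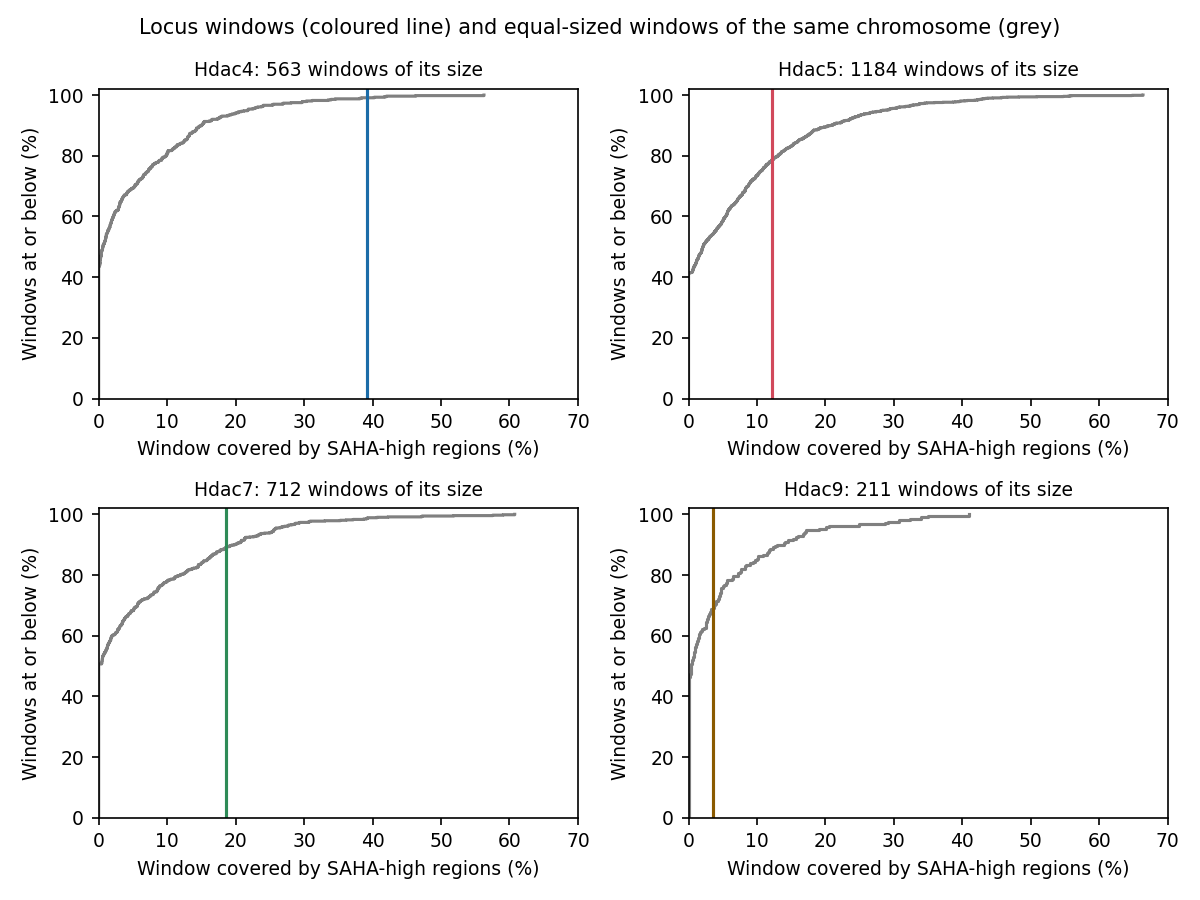
Coverage of equal-sized windows of the same chromosome. The x axis is the percent of a window covered by SAHA-high regions, the y axis the percent of windows at or below that value (grey steps), and the coloured line is the locus. The Hdac4 line at 39.2% lies beyond nearly all 563 windows, while the Hdac9 line at 3.52% lies among the ordinary ones.

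The regions at Hdac4, whose product is the best studied class IIa enzyme of the growth plate, came in runs. Of 41 intervals from one region to the next, 22 (53.7%) spanned 1 kb or less, beside 37.0% of the 4698 on chromosome 1. When regions no more than 1 kb apart were merged, the 42 became 20 stretches. The longest stretch, chr1:93929963-93962370, spanned 32.4 kb with 6 regions and 6764 SAHA tags. The next, chr1:94017796-94043183, spanned 25.4 kb with 5 regions and 6154 tags. A stretch of 17.8 kb at chr1:93969918-93987694 held 2 regions and 5246 tags, and 1 of 14.1 kb near the window start, chr1:93805304-93819422, held 4 regions and 2954 tags. Between these runs lay empty stretches of up to 34.2 kb.

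Densely tagged regions at Hdac4 lay over both high and low DMSO levels. The longest region, chr1:93969918-93985142, was 15.2 kb long and held 4824 SAHA tags (95% Poisson interval 4689 to 4962), or 316.8 per kb. It had the highest summit fold of all 69 regions, 8.03, where fold is the authors' ratio of the SAHA summit to the local DMSO background. Over its whole length, however, the SAHA tags were only about 1.25 times the local DMSO level, since that level came to 3.84 times the genome average of 66.1 tags per kb. The level was recovered from the listed score and tags and is given at SAHA depth. Where it matched a background the authors' caller could have used, it is an upper limit and the ratio is written as "at least". Where it matched none, it is approximate and the ratio is written as "about". Rankings by ratio here order these recovered values, and the true order may differ.

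The densest region at Hdac4, chr1:94023129-94029429, held 2230 tags over 6.30 kb, or 353.9 per kb, at a fold of 3.19 and a ratio of at least 1.43. Its immediate neighbour, chr1:94029464-94037469, held fewer tags per kb (223.1) but had the highest score of the 69 regions, 2982.04. The score is 10 times the −log10 of the authors' Poisson p-value. Its 1786 SAHA tags (interval 1704 to 1871) were at least 2.78 times the local DMSO level, which was 1.21 times the genome average. The 2 regions lie side by side, the first denser and the second with the higher recovered ratio. Both ratios are lower limits, so the true order of contrast with DMSO is not known.

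The highest recovered whole-region ratio of all 69, named after its value was seen, was also at Hdac4, at chr1:93807929-93811101 in the run near the window start. This region of 3.17 kb held 821 SAHA tags over a recovered DMSO level equal to the genome average, which is an upper limit. The ratio was at least 3.91 (interval 3.65 to 4.19 from the SAHA tags alone) and the fold 7.61. Ratios at Hdac4 ran from 1.25 to 3.91 with a median of 1.76. The median fold was 4.14 (2.49 to 8.03).

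Hdac5 carried 6 regions in its window of 100 kb, and the 3 with the most tags lay at the window start. From the window start, the SAHA tags per region were 346, 863, 551, 92, 96 and 166. The first 3 regions lay within 15.2 kb of the window start, and the last 2 lay together beyond a gap of 40.4 kb. The longest, chr11:102032675-102037103, was 4.43 kb long with 863 tags (interval 806 to 923). It also had the highest fold (6.67) and score (852.59) of the window, and its ratio was about 2.12. The densest, chr11:102042478-102045160, held 205.4 tags per kb, but with a DMSO level of 2.41 times the average its ratio was at least 1.29 and its fold 2.76. At chr11:102099370-102100528, named after its value was seen, 166 tags were at least 2.17 times the recovered DMSO level. That level equalled the genome average and is an upper limit. The ratio was the highest of the window, at one of its smaller tag counts. Coverage of the Hdac5 window came in part from the longest region: without it, 7.82% was covered in place of 12.3%.

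At Hdac7, 1 long region at the window edge dominated the tag count. This region, chr15:97570714-97588426, was the longest of the 69 at 17.7 kb, with 9.29 kb of it before the window and its summit 723 bp inside. It held 5904 SAHA tags (interval 5754 to 6057), 62.7% of the tags of the Hdac7 regions, at 333.3 per kb. Its DMSO level was 4.24 times the average and its ratio about 1.19, with a fold of 6.46. Without it, Hdac7 regions held 199.0 tags per kb in place of 266.3, covered 12.6% of the window, and the window exceeded 80.8% of its equals.

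The other strong Hdac7 regions lay towards the window end, over DMSO levels of 1.51 and 1.20 times the average. At chr15:97682190-97683836, 542 SAHA tags in 1.65 kb (329.1 per kb, interval 302.0 to 358.0) were at least 3.30 times the DMSO level, the highest ratio of the window, with a fold of 6.61. The same fold was listed for chr15:97705432-97711313, which had the highest score of the window (2325.93) and 1328 tags, about 2.86 times the DMSO level. The remaining 7 regions had 110 to 503 tags and folds of 2.40 to 4.78. A region of 140 tags adjoined the edge region, and gaps of 43.0 kb and 48.5 kb, with 1 region of 200 tags between them, separated this pair from the others. Of the 9 gaps at Hdac7, 5 (55.6%) were 1 kb or shorter, beside 35.7% over chromosome 15, so the Hdac7 regions also stood in groups.

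Hdac9 held 11 regions in 550 kb, and 9 of them lay in the first 211.3 kb of the window. The other 2, chr12:35212497-35214142 with 214 tags and chr12:35214390-35215384 with 114 tags, lay together beyond a gap of 301.2 kb. Of the 2529 such gaps of chromosome 12, 47 (1.86%) were as long or longer. Only 1 of the 10 gaps at Hdac9 was 1 kb or shorter (10.0%, against 37.5% over chromosome 12). The regions thus seldom adjoined, but they were not spread evenly. Most of them lay before a gap of 109.0 kb, in the first 78.3 kb of the window. The longest and most tagged, chr12:34758770-34763768, held 1287 tags in 4999 bp over a DMSO level of 3.38 times the average. Its ratio of about 1.15 was the lowest recovered value of the 69 regions.

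The densest Hdac9 region, chr12:34726516-34728240, held 487 tags (interval 445 to 532), or 282.3 per kb, at least 2.20 times the DMSO level. It also had the highest score of the window, 530.45. The highest fold, 5.58, was at a short region of 749 bp, chr12:34887343-34888091, with 106 tags (interval 86.8 to 128.2) and a ratio of at least 2.14. At chr12:34777520-34778346, named after its value was seen, 123 tags gave the highest ratio of the window, at least 2.25. A DMSO level no more than 0.1% above the genome average was found in 4 of the 11 regions, against 0 of 10 at Hdac7, 7 of 42 at Hdac4 and 2 of 6 at Hdac5. Over all regions with a recovered level the share was 21.8%. Where such a level matched the genome average, it is an upper limit, and the DMSO signal there may be lower.

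Density inside the regions differed less between the loci than coverage did. Pooled over all regions of a locus, SAHA tags per kb were 266.3 at Hdac7 (95% Poisson interval 260.9 to 271.7), 218.3 at Hdac4 (215.8 to 220.8), 190.2 at Hdac9 (184.1 to 196.5) and 172.6 at Hdac5 (165.3 to 180.1). The value over all 61400 regions was 213.0. These intervals do not overlap, but they cover counting error only. The medians of single regions were lower and closer together, at 174.1 for Hdac7, 160.2 for Hdac4, 141.5 for Hdac9 and 140.4 for Hdac5, against 160.1 over all regions. The order was the same on both scales, but in the pooled values the first place of Hdac7 rested on its edge region. Without the most tagged region of each locus, Hdac4 came first with 205.6 pooled tags per kb and Hdac7 second with 199.0. The median region was 2022 bp long at Hdac4, 1836.5 bp at Hdac5, 1628.5 bp at Hdac7 and 1644 bp at Hdac9, against 1337 bp over the whole list.

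The summit fold reached 5 in 22 of the 69 regions, a share of 31.9% against 19.0% of all listed regions. By locus these were 12 of 42 at Hdac4, 2 of 6 at Hdac5, 3 of 10 at Hdac7 and 5 of 11 at Hdac9. The median fold was 4.98 at Hdac9, 4.14 at Hdac4, 3.65 at Hdac5 and 3.33 at Hdac7, beside 3.93 over all regions. Whole-region ratios did not follow the same order. The ratio reached 2 in 18 of 69 regions (26.1%), near the 28.0% of all 61106 regions with a recovered level, and the medians were 1.86 at Hdac5, 1.76 at Hdac4, 1.75 at Hdac9 and 1.67 at Hdac7. All 4 medians lie within the quartiles of the whole list, 1.59 and 2.04, and they mix ratios of the "at least" and "about" kinds. Their order did not hold under other settings. With scores of at least 100 the medians were 2.13 at Hdac7, 2.12 at Hdac5, 2.06 at Hdac9 and 1.90 at Hdac4. With matched levels only, they were 2.05 at Hdac9, 1.81 at Hdac4, 1.80 at Hdac7 and 1.79 at Hdac5. Scores of at least 100 were reached by 43 of 69 regions (62.3%), against 62.5% of the list, with 29 of 42 at Hdac4, 3 of 6 at Hdac5, 5 of 10 at Hdac7 and 6 of 11 at Hdac9. The median score was higher than over the list, at 168.7 against 132.3, and the upper quartile was 439.5 against 279.4. Hdac4 had the highest median score of the 4 loci, 258.9, and Hdac9 the lowest, 119.8.

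**Figure D3:**
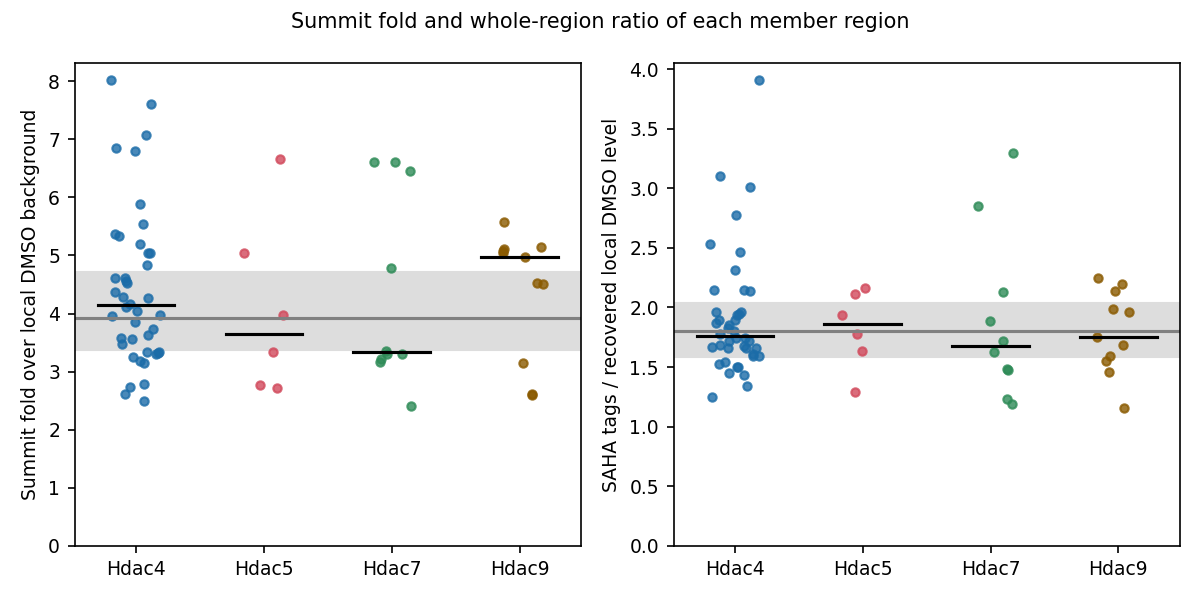
Summit fold (left) and ratio of SAHA tags to the recovered local DMSO level (right) for each region, by locus. Each point is 1 region with sideways scatter added, black bars are locus medians, and the grey line and band are the median and quartiles of all regions. Hdac9 has the highest median fold, 4.98, while the 4 median ratios lie between 1.67 and 1.86.

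Region length went with a part of this. Of the 69 regions, 10 (14.5%) were longer than 5 kb, 8 of them at Hdac4 and 2 at Hdac7, against 7.85% of the whole list. These 10 held 57.4% of the SAHA tags of the 4 loci. A fold of at least 5 was found in 9 of the 10, in 10 of the 40 regions of 1 to 5 kb and in 3 of the 19 shorter than 1 kb. Over the whole list the same shares were 41.2%, 20.0% and 12.0%. The ratio showed no such steps, with a median of 1.77 in the 10 long regions, 1.80 in the 40 of middle length and 1.74 in the 19 short ones. Over the whole list the median ratio fell with length, from 1.85 below 1 kb to 1.77 at 1 to 5 kb and 1.53 above 5 kb. Among the long regions it ran from 1.19 to 2.86, and their median DMSO level was 1.99 times the average.

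**Figure D4:**
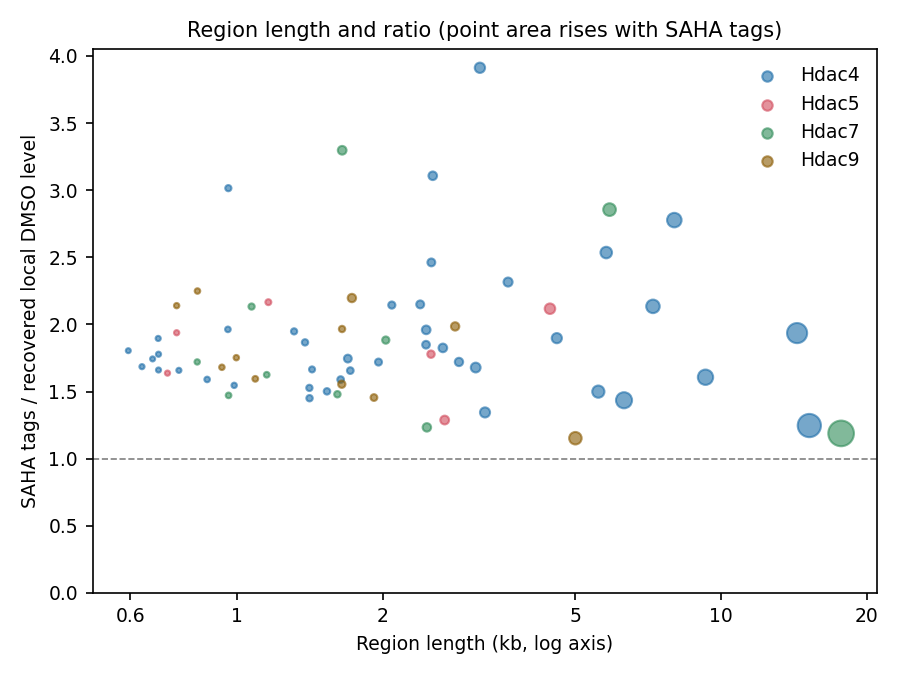
Region length (kb, log axis) and ratio of SAHA tags to the recovered local DMSO level for the 69 regions, coloured by locus. Point area rises with SAHA tags, and the dashed line marks a ratio of 1. The 2 longest regions, at Hdac7 and Hdac4, have the most tags and ratios of about 1.19 and 1.25.

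In 9 of the 69 regions the recovered level matched a whole DMSO tag count of the region itself, which gives both counts. These 9 were picked by how their level matched, so they are a selected set and do not stand for the 69. The region with the highest recovered ratio, at least 3.91, is not among them. For 7 regions at Hdac4 the scaled ratio ran from 1.5 to 2.15. The highest was at chr1:93985307-93987694, with 422 SAHA tags against 121 DMSO tags (ratio 2.15, 95% exact binomial interval 1.75 to 2.65). The lowest was at chr1:94054679-94056210, with 229 against 94 tags (ratio 1.5, interval 1.18 to 1.93). At Hdac7, chr15:97714770-97716796 held 327 SAHA and 107 DMSO tags, a ratio of 1.88 (interval 1.51 to 2.37). At Hdac9, chr12:34772035-34772963 held 120 and 44 tags, a ratio of 1.68 (interval 1.18 to 2.43). Hdac7 and Hdac9 are represented here by 1 region each, so these values describe single regions and not the loci. Intervals cover counting error only, and DMSO tags were scaled by 1.62.

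Listed regions went on close outside the borders at Hdac5 and Hdac7, and lay farther off at Hdac4 and Hdac9. Before the Hdac7 window, the nearest region outside lay 9.79 kb from the border with 143 tags and a fold of 3.42. The edge region filled 9.29 kb of that distance, so these regions were nearly adjacent. After the Hdac7 window, the nearest lay 3.75 kb away with 316 tags, beside 327 tags in the last region inside. At Hdac5 the nearest regions outside lay 5.19 kb before (101 tags) and 7.45 kb after (926 tags, fold 5.45). At Hdac4 they lay 17.6 kb before (392 tags, fold 6.76) and 36.5 kb after (270 tags). At Hdac9 they lay 32.2 kb before (67 tags) and 226.0 kb after (79 tags).

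In RefSeq's GRCm38 annotation, used for gene order alone, the nearest protein-coding neighbours are Twist2 and Ndufa10 for Hdac4, G6pc3 and Hrob for Hdac5, Slc48a1 and Vdr for Hdac7, and Twist1 and Prps1l1 for Hdac9. Twist1 and Twist2 encode helix-loop-helix factors known to restrain osteoblast differentiation, and Vdr encodes the vitamin D receptor. The Hdac9 gene model of that annotation is longer than the window used here. Which regions lie in the deacetylase genes, at their starts or at neighbours was not analysed here, and the values above belong to windows, not to genes.

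The libraries limit all of these values. The authors kept 97.4% of 126938706 tags for SAHA and 65.6% of 116209155 for DMSO when duplicates were limited, and the part of this difference in the results was not tested. The libraries were scaled by their kept tags, so a change shared by the whole genome would not appear in the list. The authors' FDR column is a percentage from the exchange of SAHA and DMSO. It ran from 58.31% to 100% over the 69 regions and stood at 100% in 14 of them (20.3%), against 11.6% of all listed regions. Among those 14 were the highest-scoring regions of Hdac4, Hdac5 and Hdac7 and the highest-ratio regions of Hdac4 and Hdac7. The highest-scoring region of Hdac9 stood at 96.73%, and the highest-ratio regions of Hdac5 and Hdac9 at 59.15% and 58.48%. The highest scores therefore did not go with a low FDR, while the highest-ratio regions lay at both ends of its range. The lowest FDR in the whole list was 58.23%, so high values are not particular to these loci.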

How the data were processed

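The deposited list of regions was made by the authors with MACS 1.4.0rc2, with the SAHA reads as ChIP and the DMSO reads as control, per the file headers. CASAVA 1.7.0, BWA 0.5.9, SAMtools and build mm9 are named in the submitters' processing notes. Per the file headers, the p cutoff was 1e-05, at most 3 duplicate tags per position were kept, and DMSO tags were scaled up to the SAHA depth. As deposited, tags are whole counts of SAHA tags, the score is 10 times the −log10 of a p-value, the fold enrichment is a ratio and the FDR is a percent. A list of regions higher in DMSO was not analysed here.

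Python 3.11.15, numpy 2.4.6, scipy 1.17.1, pandas 2.3.3 and matplotlib 3.10.9 were used. A region belonged to a window if it overlapped it by any base, and coverage was counted inside the window only. Tags per kb used whole regions. The local DMSO level is the Poisson mean that gives the listed score for the listed tags, and all 69 regions had one. Over the list, 75.8% of the 61106 levels matched a possible background within the score's rounding of 0.005, and 24.2% matched none. Among the 69 regions, 21 (30.4%) matched none. These include the long regions with ratios of about 1.15, 1.19 and 1.25, whose levels are thus approximate. Equal-sized windows were laid end to end from both sides of the locus within the span of the chromosome's regions. Regions named in each locus were the longest and those highest in fold, tags per kb and score; others are marked. The members and lists were chosen with earlier results of these data known. Other Hdac genes, their partners and the sequences of the regions were not analysed here, since the annotation used was of GRCm38. The alternatives were a score of at least 100, joined regions, summits inside the window, single-region medians, other sets of windows and matched levels.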

Additional observations from a re-analysis of the deposited data

How the results depend on the processing

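No paired analysis was possible because each condition has 1 library. Leaving out the region with the most tags was chosen after seeing the data. Of 68 alternative values, 40 stayed within the interval or within 1.5 times for counts, and 28 did not. The coverage interval counted each kb of a window as an independent draw, which neighbouring kb are not. That of the median ratio counted each region so. No interval holds the spread between cultures, so the tally is a description only. Median ratios stayed within their intervals in all alternatives, but the order of the loci by median ratio changed. The interval of Hdac5 coverage is wide, since its window is short, and its 2 alternative values lay inside it although they fell more than 1.5 times. With scores of at least 100, region numbers were 3 at Hdac5, 5 at Hdac7 and 6 at Hdac9, coverage was 8.10% at Hdac5 and 1.71% at Hdac9, tags per kb were 227.0 at Hdac4 and 292.9 at Hdac7, and Hdac5 exceeded 75.3% of windows. Joining left 20 stretches at Hdac4 and 5 at Hdac7. Single-region medians were 160.2 tags per kb at Hdac4, 140.4 at Hdac5, 174.1 at Hdac7 and 141.5 at Hdac9. Without the most tagged region, tags per kb were 205.6, 159.9, 199.0 and 166.8 in the same order of loci, coverage was 7.82% at Hdac5 and 12.6% at Hdac7, and Hdac5 and Hdac7 exceeded 67.1% and 80.8% of windows. Ranked by number of regions, Hdac4, Hdac5 and Hdac7 exceeded 97.0%, 75.2% and 85.3%. Against windows of all autosomes, Hdac5 and Hdac9 exceeded 84.2% and 58.4%. Among windows with at least 1 region, Hdac5, Hdac7 and Hdac9 exceeded 63.7%, 77.8% and 43.0%. Stricter scores, joining and leaving out regions lower counts and coverage by construction; for the remaining shifts the cause was not tested. The order of coverage, Hdac4 over Hdac7 over Hdac5 over Hdac9, was the same with scores of at least 100 and without each most tagged region. Depth limits the short regions, whose tag counts near 100 leave wide intervals.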
